A study of Mus musculus with 44 samples.

Results

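The genes described here are the mouse zinc finger genes named Zfp followed by a number of 3 digits that starts with 6, 7, 8 or 9. They were taken as all protein-coding genes whose symbol fits that pattern, a rule that uses only the symbol and the gene type. This gave 164 of the 27179 genes counted, found by matching the numeric gene identifiers to the RefSeq table for GRCm38.p6. Another 196 counted genes are named Zfp with a number outside this range, and they served as a comparison. The counts come from dorsal hippocampus of wild-type (WT) mice and mice homozygous for the Kdm5b deltaARID allele (Kdm5bDARID/DARID), in 36 libraries of 1 mouse each. Mice were naive (0 h) or were taken 1 h or 3 h after contextual fear conditioning, in which a mouse explores a chamber and then receives foot shocks. Each of the 6 groups held 6 libraries, 3 labelled male and 3 labelled female.

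The deltaARID allele is a germline deletion, so every cell of the mutants carries it, and it removes the ARID domain of the histone H3 lysine 4 demethylase KDM5B. Both genotypes were F2 mice from a cross of C57BL/6J and 129S2/Sv, so each mouse carried its own mixture of both strains, and samples were taken at an age of 7 to 8 weeks. Kdm5b itself had a mean level of 88.7 ± 4.21 CPM over WT mice and 83.8 ± 4.82 CPM over mutants (SD, n = 18 each), where CPM is the count scaled to library size after TMM normalization. Its log2 difference was −0.08 (SE 0.02, edgeR adjusted p = 0.0694). Counts over the whole gene do not show the deleted part, so they do not check the genotype labels.

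Zfp genes encode proteins with C2H2 zinc fingers, short loops held by a zinc ion that read DNA a few bases at a time. Many also carry a KRAB domain, which binds the corepressor TRIM28 (KAP1), and TRIM28 brings the histone methyltransferase SETDB1 and HP1 proteins that silence transposons and other sequence. The genes have multiplied in tandem, so close relatives often sit side by side on a chromosome, and reads from such relatives can be hard to assign.

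Library totals ran from 40274435 to 107000233 counts. Of these, the 164 genes held between 0.291% and 0.322%. Their share was 0.303 ± 0.00884% (SD, n = 6) in naive WT and 0.308 ± 0.00458% (SD, n = 6) in naive mutants. Group means of the other 4 groups lay between 0.2995% in WT at 3 h and 0.310% in mutants at 1 h, and the groups overlapped. The transcripts that mark sex went against the label in 2 libraries, WT 1 h M1 and mutant 3 h F2 (M and F stand for the labelled sex, with the replicate number), and the calls, with the differences of smallest p, are also given without them. The summed level of 6 choroid plexus markers (Ttr, Folr1, Kl, Clic6, Otx2 and Aqp1) ran from 42.9 to 7923 CPM across libraries. The labels do not say more than that the libraries are separate mice.

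The start sites of 6 genes that changed in the tests described further on are shown for their sequence, since these are the regions where the mark that KDM5B removes is usually found. Each is the 250 bases upstream of the RefSeq start site on GRCm38.p6, 5′ to 3′ on the strand of the gene. The start in the sequence table is not always the outer end of the gene in the gene table. The windows of Zfp651 and Zfp948 lie within the gene spans given further on, those of Zfp677, Zfp811 and Zfp810 partly so, and that of Zfp938 lies outside. Capitals mark a CCAAT box (CCAAT, or ATTGG on the other strand) or the core of a cyclic AMP response element (TGACG, or CGTCA on the other strand). The full element TGACGTCA was not found in these 6, and neither were the letters GCGTGGGCG of EGR factors, TGANTCA of AP-1 or the palindromic motif of NRF1.
Zfp677, chr17:21383498-21383747, plus strand: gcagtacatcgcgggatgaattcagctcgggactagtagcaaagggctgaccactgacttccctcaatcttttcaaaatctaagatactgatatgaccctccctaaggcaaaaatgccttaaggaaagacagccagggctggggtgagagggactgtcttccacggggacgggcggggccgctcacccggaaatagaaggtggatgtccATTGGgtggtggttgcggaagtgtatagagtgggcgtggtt
Zfp811, chr17:32809932-32810181, minus strand: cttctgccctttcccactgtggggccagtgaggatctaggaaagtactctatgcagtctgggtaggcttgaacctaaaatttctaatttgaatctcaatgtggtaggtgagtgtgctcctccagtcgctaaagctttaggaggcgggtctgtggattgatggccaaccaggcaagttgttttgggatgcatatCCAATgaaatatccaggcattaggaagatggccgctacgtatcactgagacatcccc
Zfp948, chr17:21566728-21566977, plus strand: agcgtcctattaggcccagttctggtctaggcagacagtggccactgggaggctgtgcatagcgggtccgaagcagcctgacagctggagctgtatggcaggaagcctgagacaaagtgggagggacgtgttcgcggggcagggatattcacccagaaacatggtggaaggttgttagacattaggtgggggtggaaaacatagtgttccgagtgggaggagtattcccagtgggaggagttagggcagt
Zfp651, chr9:121759783-121760032, plus strand: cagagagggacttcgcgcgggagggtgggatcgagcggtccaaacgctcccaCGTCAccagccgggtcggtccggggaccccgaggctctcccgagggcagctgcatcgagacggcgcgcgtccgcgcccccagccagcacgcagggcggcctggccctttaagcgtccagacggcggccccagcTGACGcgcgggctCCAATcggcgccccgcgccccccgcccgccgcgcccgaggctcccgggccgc
Zfp810, chr9:22307639-22307888, minus strand: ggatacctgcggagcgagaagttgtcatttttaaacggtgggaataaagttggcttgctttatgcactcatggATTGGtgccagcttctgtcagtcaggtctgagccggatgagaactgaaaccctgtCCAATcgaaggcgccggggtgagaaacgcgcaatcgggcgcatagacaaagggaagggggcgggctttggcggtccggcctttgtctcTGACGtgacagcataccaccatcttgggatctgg
Zfp938, chr10:82241281-82241530, minus strand: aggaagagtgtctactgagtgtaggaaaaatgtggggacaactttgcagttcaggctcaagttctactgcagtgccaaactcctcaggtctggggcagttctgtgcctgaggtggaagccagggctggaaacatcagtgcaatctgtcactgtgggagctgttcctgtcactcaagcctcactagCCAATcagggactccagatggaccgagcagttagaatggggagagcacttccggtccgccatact

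A start site sequence was found for 143 of the 164 genes, and 60.1% of these held a CCAAT box, against 34.5% of all 27025 start sites in the table. The core TGACG was in 25.2% of the Zfp start sites and 17.9% of all, and the full TGACGTCA in 0.699% and 1.62%. GCGTGGGCG was in 0 of 143 against 0.54% of all, TGANTCA in 4.9% against 6.87%, and the NRF1 motif in 2.8% against 0.781%. The median number of CpG dinucleotides, counted over 250 bases before and 50 after the start, was 11 for the Zfp genes and 7 for all genes. Of the sequences shown, 5 held a CCAAT box and the Zfp948 sequence held none of the searched letters. The start sites of all genes were not limited to protein-coding genes, and shares for the Zfp genes with other numbers are not given. These shares are descriptions of letters in a window and not of bound factors.

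The genes differed widely in level. Per kilobase of exon, 161 of the 164 could be placed, with a median of 2.6 CPM per kilobase, and quartiles of 1.08 and 4.55. Of these, 122 stood at 1 CPM per kilobase or above, 9 above 10, and 18 below 0.1. The highest was Zfp706, a small zinc finger gene with a role in stem cell self-renewal, at 39.0 CPM per kilobase, followed further down by Zfp871 at 16.1, Zfp651, a gene of the BTB zinc finger class, at 15.8, and Zfp664 at 15.7. Zfp810 was near the middle of the ranking, at 2.88 CPM per kilobase and rank 76. Zfp677 (0.902), Zfp811 (1.91) and Zfp647 (1.29), which appear again in the comparisons, were in the lower part of it.

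**Figure D1:**
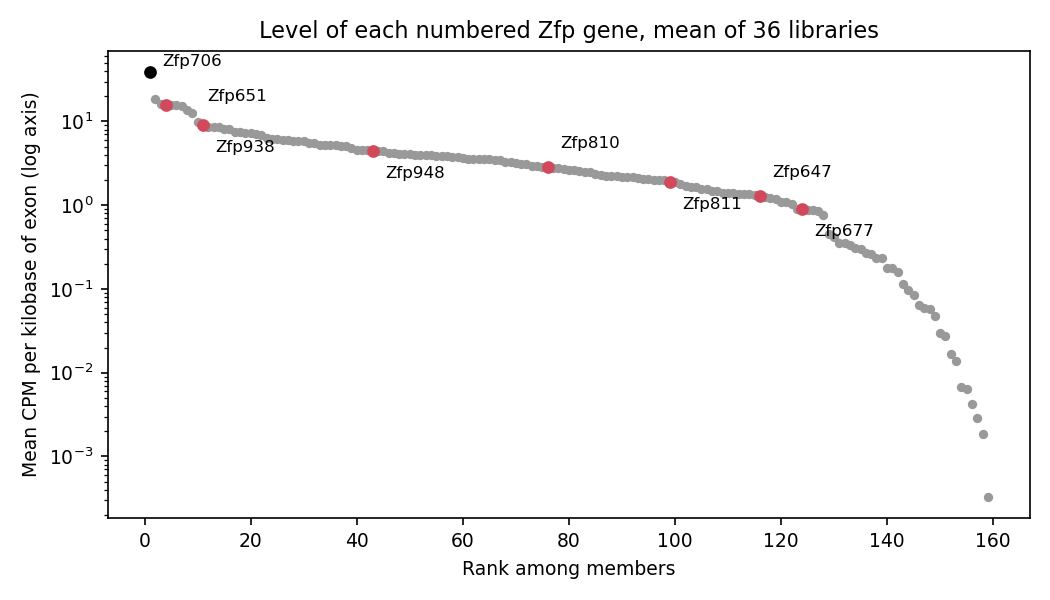
Mean level of each numbered Zfp gene over 36 libraries, in CPM per kilobase of exon on a log axis, against its rank. Red points are the genes called in a comparison, which lie between 15.8 CPM per kilobase (Zfp651) and 0.902 (Zfp677), and the black point is Zfp706 at 39.0 (2 genes at 0 are not drawn).

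Genes at the lower end were barely detected. Zfp616 and Zfp735 had 0 counts in every library, which allows up to 3 counts per library, and 12 genes including these had too few counts to test, with at most 18 counts in any library. Of these 12, 5 lie on chromosome 4 and 3 on chromosome 2. Among the 152 tested, Zfp973, Zfp819 and Zfp985 had the lowest levels, at 0.0817, 0.142 and 0.169 CPM. Zfp819 had between 0 and 32 counts per library, which leaves its fold changes with standard errors as large as 0.94 on the log2 scale.

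The genes were found on 19 chromosomes, with 36 on chromosome 7, 22 on chromosome 17, 16 on chromosome 8 and 14 on chromosome 4. None was on chromosome 1, where Kdm5b is. Linking genes less than 500 kb apart put 91 of them into 17 runs of 3 or more. The longest run, on chromosome 17 from 21383707, held 14 genes, Zfp677 and Zfp948 among them. A second run on chromosome 17, from 32765496, held 6 genes including Zfp871, Zfp811 and Zfp799, and Zfp810 lay in a run of 4 on chromosome 9. Exons of 47 genes overlap an exon of another gene, among them Zfp651 with the antisense gene E530011L22Rik, and whether counting used strand is not given in the sources used here. Reads that fit several relatives may also have been left out or split, so values of genes in runs, such as those on chromosomes 2 and 4, are uncertain.

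Levels were steady between groups for most genes. The highest group mean exceeded the lowest by a median of 1.13-fold over the tested genes, by less than 1.2-fold in 113 of 152 and by more than 1.5-fold in 17. The abundant genes show this well. Zfp706 had group means between 189 ± 8.96 and 200 ± 8.49 CPM (SD, n = 6), Zfp871 between 174 ± 11.1 and 184 ± 11.4, and Zfp664 between 120 ± 7.64 and 125 ± 7.03. In each of these genes all 6 groups overlapped.

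Mice of one group differed in some genes far more than in others. The spread was taken as the SD of log2 CPM around the group means, in the 141 genes with a mean count of at least 50, and ranked against the 1000 genes closest in level. The median rank was the 39.6th percentile, and 48 of 141 genes were above the 50th percentile. At the other end, 10 of 141 were above the 90th percentile. Zfp983 was at the 98.9th percentile and Zfp970 at the 98th. The 3 largest spreads were those of Zfp991 (SD 0.98 on the log2 scale), Zfp951 (0.84) and Zfp984 (0.58), at percentiles 95.5, 94.1 and 89.2. Zfp951 in naive mutants ran from 0.486 to 3.83 CPM with a median of 0.82, and Zfp991 in mutants at 3 h from 0.428 to 3.08 CPM with a median of 1.1. In each of these groups 1 mouse stood above the other 5. Zfp772 was also variable, at the 93.5th percentile.

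**Figure D2:**
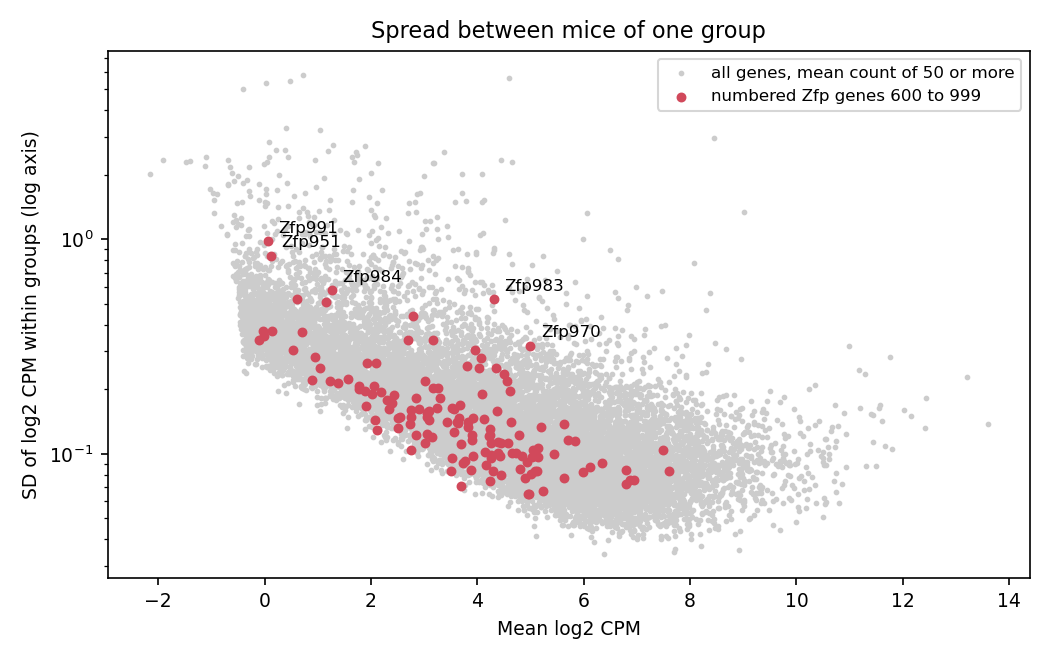
SD of log2 CPM within groups, on a log axis, against mean log2 CPM, for genes with a mean count of 50 or more. Red points are the numbered Zfp genes, most of which lie in the lower part of the cloud, while Zfp991, Zfp951, Zfp984, Zfp983 and Zfp970 lie high for their level.

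The first question was whether these genes differ between mutants and WT, over all 3 time points. Zfp677 and Zfp811, both on chromosome 17, were higher in mutants, and these were the only 2 of 152 tested genes with an adjusted p under 0.05 in the edgeR fit of 36 libraries. Among all 18186 genes tested, 1.18% passed, and of the Zfp genes with other numbers 3 of 192 did. Of the Zfp genes, 17 had an unadjusted p under 0.05 (11.2%, against 15.1% of all genes), 88 were higher and 64 lower in mutants, and the median log2 difference was 0.01, against 0.00 for all genes. The share higher in mutants was thus 57.9%, against 50.2% of all genes, and 124 of 192 Zfp genes with other numbers were higher (median 0.02). The difference was within 0.1 on the log2 scale for 119 genes.

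Zfp677 (chr17:21383707-21399265, plus strand) had in naive WT a lowest, median and highest level of 1.89, 2.58 and 2.68 CPM, and in naive mutants of 2.82, 3.41 and 3.69 CPM. All 6 naive mutants were thus above all 6 naive WT mice. At 1 h WT ran from 1.9 to 2.7 (median 2.36) and mutants from 2.14 to 3.06 (median 2.72), and at 3 h WT from 1.69 to 3.18 (median 2.13) and mutants from 2.19 to 3.23 (median 2.75), so the groups overlapped after conditioning. Averaged over the times, Zfp677 was higher in mutants by a log2 difference of 0.30 (SE 0.07, adjusted p = 0.0312), and 15 of 18 mutants were above the WT mean. Without the 2 libraries of discordant sex this was 0.29 (SE 0.07, adjusted p = 0.0255). In naive mice alone the difference was 0.45 (SE 0.12, adjusted p = 0.71). The level rests on 109 to 294 counts per library.

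Zfp811 (chr17:32795676-32810057, minus strand) ran in WT from 4.5 to 7.46 CPM at 0 h (median 6.45), from 5.46 to 6.96 at 1 h (median 6.68) and from 5.22 to 7.33 at 3 h (median 5.98). In mutants it ran from 6.57 to 7.95 CPM at 0 h (median 7.07), from 5.77 to 8.14 at 1 h (median 6.89) and from 7.23 to 8.32 at 3 h (median 7.8). The genotypes overlapped at each time, and 5 of 6 mutants at 3 h were above every WT mouse of that time. Averaged over the times, Zfp811 was higher in mutants by a log2 difference of 0.21 (SE 0.05, adjusted p = 0.0352), with 17 of 18 mutants above the WT mean. It was 0.22 without the 2 libraries of discordant sex (SE 0.06, adjusted p = 0.0273). Its neighbours in the same run, Zfp871 and Zfp799, differed by 0.05 (SE 0.03, adjusted p = 0.478) and 0.05 (SE 0.03, adjusted p = 0.436), and the tested neighbours of Zfp677, which are Zfp160 and Zfp54, by −0.01 (SE 0.03, adjusted p = 0.94) and 0.16 (SE 0.12, adjusted p = 0.603).

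Zfp970, on chromosome 2, had the next smallest p, with a log2 difference of 0.38 (SE 0.10, adjusted p = 0.0638). It ran from 18.6 to 34.3 CPM in WT at 3 h (median 24.6) and from 34.4 to 43.9 in mutants at 3 h (median 41.5), without overlap. In naive mice the WT range, 24.7 to 35.0 CPM, lay within the mutant range, 17.97 to 55.5 CPM. Zfp970 also had one of the widest spreads between mice, as described above. It passed when mutant 0 h M1, WT 1 h M1, WT 3 h F1 or mutant 3 h F2 was left out (adjusted p = 0.0185, 0.0157, 0.0484 and 0.0484). Zfp970 also passed without the 2 libraries of discordant sex (0.45, adjusted p = 0.0105) and with DESeq2 (0.38, adjusted p = 0.0307), where 3 of 152 genes and 2.96% of all genes passed.

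**Figure D3:**
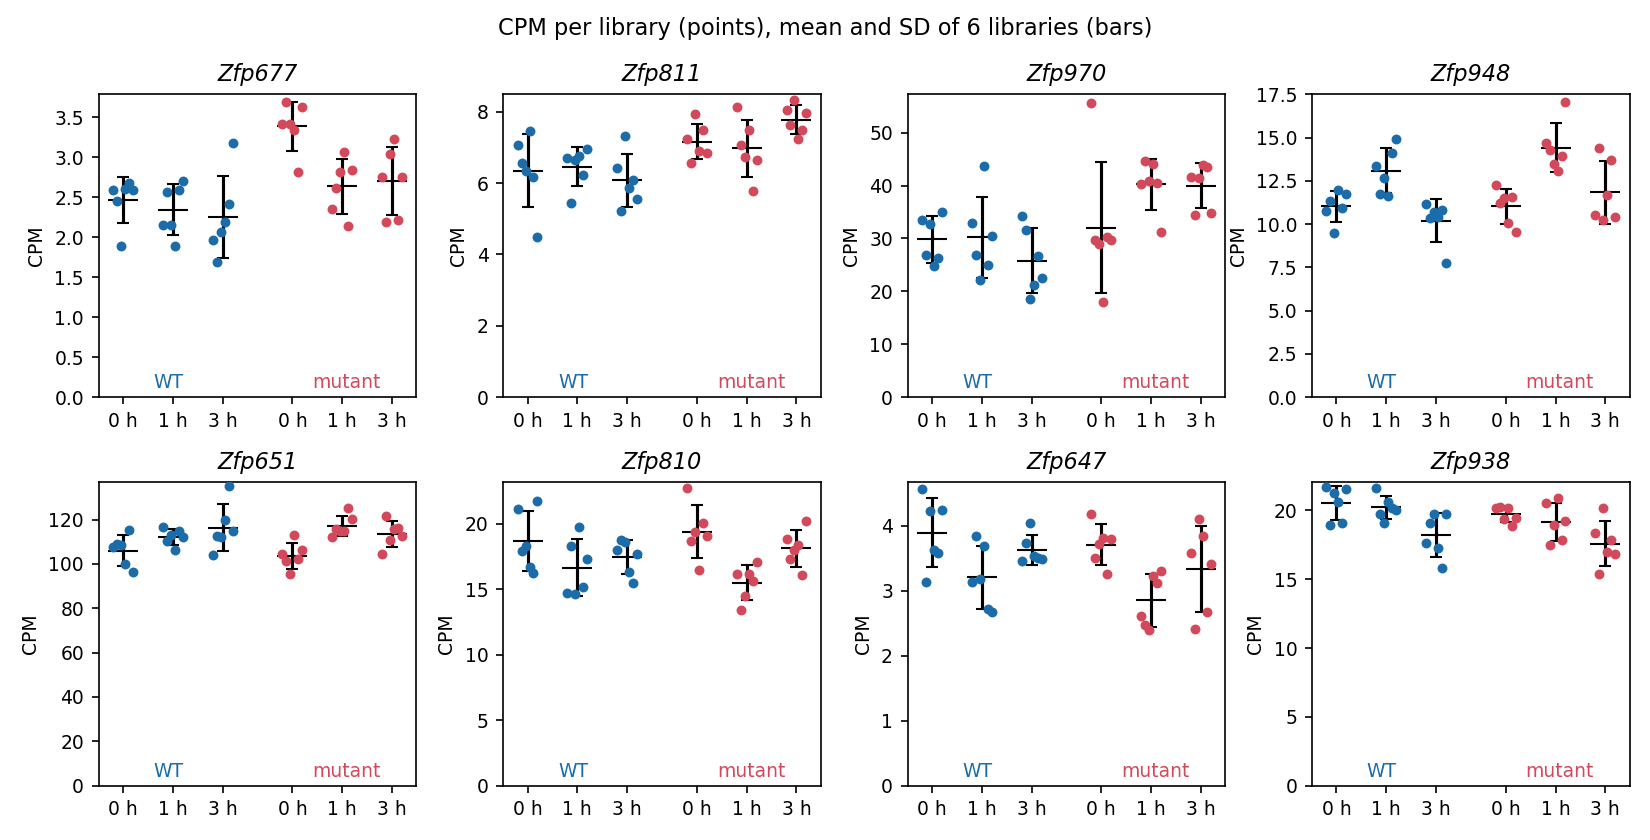
CPM of 8 numbered Zfp genes in each library (points; WT blue, mutant red), by hours after conditioning, with the mean and SD of 6 libraries as black bars and each axis starting at 0. Naive mutants lie above naive WT for Zfp677, and 1 h values of Zfp948 lie above most 0 h values in both genotypes.

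Both genotype calls were near the threshold. Zfp677 lost its call when any 1 of 10 libraries was left out (WT 0 h F3, 1 h F3 and 3 h F2; mutant 0 h M3 and F2, 1 h M1 and F3, 3 h M1, F1 and F3), with adjusted p from 0.0507 to 0.0563. Zfp811 lost its call without any 1 of 17 libraries, with adjusted p from 0.0506 to 0.0666. Without the 2 libraries of discordant sex 5 genes passed, where 2.58% of all genes did, namely Zfp677, Zfp811, Zfp970, Zfp775 and Zfp941. All 6 choroid plexus markers were lower in mutants at an unadjusted p under 0.05 (median log2 difference −1.66, smallest adjusted p = 0.0747 for Kl, none called), with group medians of summed CPM of 2089, 1040 and 2203 in WT and 192, 126 and 1476 in mutants at 0, 1 and 3 h. With that summed level as a covariate 0.797% of all genes passed, Zfp677 among them, and Zfp811 differed by 0.22 (SE 0.06, adjusted p = 0.0504). Of 5 dentate granule cell markers 2 were called higher in mutants (C1ql2 by 0.74, adjusted p = 0.0117), as was 1 of 5 astrocyte markers (Gja1 by 0.13, adjusted p = 0.0426). The 5 dentate markers summed to group medians of 294, 313 and 331 CPM in WT at 0, 1 and 3 h. In mutants they summed to 312, 352 and 373 CPM. The 5 astrocyte markers summed to 1511, 1532 and 1436 CPM in WT and 1569, 1607 and 1592 in mutants. For both sums the genotypes overlapped at each time. The part of these cells in the Zfp differences was not tested. In bulk RNA, fewer cells of a type and less RNA per cell cannot be told apart.

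At single time points no numbered Zfp gene passed. In naive mice 0 of 147 passed, where 0% of all 17336 genes did, and 10 had an unadjusted p under 0.05 (6.8%, against 6.15% of all). Higher in mutants were 83 of 147 at 0 h (56.5%, against 49.3% of all genes), 82 of 151 at 1 h (54.3%, against 49%) and 93 of 149 at 3 h (62.4%, against 50.2%). At 1 h 0 of 151 passed (0% of all), with 5 at an unadjusted p under 0.05 (3.31% against 8.61%), and at 3 h 0 of 149 (0.0115% of all), with 5 (3.36% against 6.36%). DESeq2 called 0 of them at 0 h, 0 at 1 h and 2 at 3 h (Zfp811 and Zfp970), and of all genes 0.0865%, 0.643% and 0.27%. The genes with the smallest p in naive mice after Zfp677 were Zfp974 (log2 difference 0.31, SE 0.09) and Zfp799 (0.16, SE 0.05), both with an adjusted p of 0.71. At 1 h they were Zfp820 (−0.80, SE 0.26, adjusted p = 0.389), Zfp622, which acts in assembly of the large ribosomal subunit (0.15, SE 0.05, adjusted p = 0.433), and Zfp970 (0.42, SE 0.15, adjusted p = 0.456). At 3 h they were Zfp970 (0.64, SE 0.14, adjusted p = 0.496), Zfp811 (0.36, SE 0.08, adjusted p = 0.503) and Zfp772 (−0.38, SE 0.13, adjusted p = 0.69). Without the 2 libraries of discordant sex 0 of these genes passed at 1 h and 0 at 3 h (0.236% and 0.103% of all genes). At 1 h the differences were then −0.73 for Zfp820 (adjusted p = 0.388), 0.11 for Zfp622 (adjusted p = 0.4) and 0.56 for Zfp970 (adjusted p = 0.0837). At 3 h they were 0.70 for Zfp970 (adjusted p = 0.204), 0.37 for Zfp811 (adjusted p = 0.268) and −0.41 for Zfp772 (adjusted p = 0.51).

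The second question was whether fear conditioning moved these genes. Averaged over genotypes, 4 of 152 changed at 1 h, where 1.14% of all genes and 1 of 192 Zfp genes with other numbers did. Zfp948 and Zfp651 rose, and Zfp810 and Zfp647 fell. At an unadjusted p under 0.05 there were 22 (14.5%, against 12.5% of all genes), 80 were higher and 72 lower, and the median log2 difference was 0.00 against −0.01 for all genes. Of the Zfp genes with other numbers 104 of 192 were higher (median 0.01). Without the 2 libraries of discordant sex 8 passed, where 2.23% of all genes did, namely these 4 with Zfp704, Zfp775, Zfp790 and Zfp941. DESeq2 called 7, and 2.23% of all genes, and with the choroid plexus covariate 7 passed, with 1.65% of all genes.

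Zfp948 (chr17:21565816-21589324, plus strand) changed the most clearly. In WT it ran from 9.46 to 11.99 CPM at 0 h (median 11.1) and from 11.7 to 14.9 at 1 h (median 13.0). In mutants it ran from 9.56 to 12.3 CPM at 0 h (median 11.4) and from 13.1 to 17.1 at 1 h (median 14.1). All 6 mutants at 1 h were above all naive mutants, and 4 of 6 WT mice at 1 h were above all naive WT mice. The rise averaged 0.32 in log2 units (SE 0.07, adjusted p = 0.0092), and 0.33 without the 2 libraries of discordant sex (SE 0.06, adjusted p = 0.00251). Within WT mice alone the difference was 0.24 (SE 0.08, adjusted p = 0.922), and 0.29 without WT 1 h M1 (SE 0.07, adjusted p = 0.346). Within mutants it was 0.39 (SE 0.08, adjusted p = 0.0709), and the difference between genotypes was 0.14 (SE 0.13, adjusted p = 1.0). By 3 h Zfp948 had a mean of 10.2 ± 1.24 CPM over WT mice and 11.8 ± 1.82 CPM over mutants (SD, n = 6), a difference of −0.01 from 0 h (SE 0.07, adjusted p = 0.971). It kept its 1 h call in each of 36 fits that left out 1 library, with adjusted p at most 0.0285. Its tested neighbours Zfp52 (0.19, SE 0.09, adjusted p = 0.345) and Zfp983 (−0.14, SE 0.20, adjusted p = 0.839) did not pass.

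Zfp810 (chr9:22276737-22307814, minus strand) ran in WT from 16.3 to 21.7 CPM at 0 h (median 18.1), from 14.7 to 19.8 at 1 h (median 16.3) and from 15.5 to 18.8 at 3 h (median 17.8). In mutants it ran from 16.5 to 22.7 CPM at 0 h (median 19.2), from 13.4 to 17.1 at 1 h (median 15.9) and from 16.1 to 20.2 at 3 h (median 18.2). The groups overlapped, and 8 of 12 mice at 1 h were below every naive mouse. Zfp810 fell by 0.25 on the log2 scale at 1 h (SE 0.06, adjusted p = 0.0309), with all but 1 of 12 mice at 1 h below the naive mean. Its tested neighbours Zfp599 and Anln differed by 0.04 (adjusted p = 0.87) and 0.00 (adjusted p = 0.997). Leaving out the 2 libraries of discordant sex gave −0.28 (SE 0.06, adjusted p = 0.0066). Taken alone, neither genotype passed in edgeR, while DESeq2 called Zfp810 in mutants (adjusted p = 0.0123). The WT difference was −0.17 (SE 0.10, adjusted p = 0.926), and the mutant difference −0.33 (SE 0.08, adjusted p = 0.11). The genotype difference in this response was −0.16 (SE 0.12, adjusted p = 1.0). At 3 h the difference from 0 h was −0.10 (SE 0.06, adjusted p = 0.445), and mutants and WT differed by 0.00 over all times (SE 0.05, adjusted p = 0.998). The 1 h call was lost without any 1 of 8 libraries (WT 0 h M3 and F1, mutant 0 h F1, WT 1 h M2, F1 and F3, mutant 1 h F2 and F3), with adjusted p from 0.0551 to 0.0764.

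Zfp651 (chr9:121759319-121771742, plus strand) was among the most abundant of these genes. In WT it ran from 96.3 to 115 CPM at 0 h (median 108), from 106 to 117 at 1 h (median 112) and from 104 to 135 at 3 h (median 114). In mutants it ran from 95.4 to 113 CPM at 0 h (median 103), from 112 to 125 at 1 h (median 116) and from 105 to 122 at 3 h (median 114). All 12 mice at 1 h and 10 of 12 at 3 h were above the naive mean. Zfp651 rose by 0.13 on the log2 scale at 1 h (SE 0.03, adjusted p = 0.0431) and by 0.13 at 3 h (SE 0.03, adjusted p = 0.0279), and both comparisons share the naive libraries. Without the 2 libraries of discordant sex the differences were 0.13 (adjusted p = 0.017) and 0.12 (adjusted p = 0.0346). E530011L22Rik, which overlaps it on the other strand, had log2 differences of −0.05 at 1 h (SE 0.07, adjusted p = 0.849) and 0.21 at 3 h (SE 0.07, adjusted p = 0.126). Klhl40, the tested neighbour on the other side, had differences of 0.07 (SE 0.08, adjusted p = 0.785) and 0.24 (SE 0.08, adjusted p = 0.131). The 1 h call was lost without any 1 of 27 libraries (adjusted p from 0.0522 to 0.115). The 3 h call was lost without WT 0 h M1 (0.0615), WT 0 h M3 (0.0644), mutant 0 h F3 (0.0519) or WT 3 h M2 (0.0572).

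Zfp647 (chr15:76910370-76925693, minus strand) fell at 1 h by a log2 difference of 0.33 (SE 0.09, adjusted p = 0.0495). The 2 libraries of discordant sex left out, this was −0.36 (SE 0.08, adjusted p = 0.0113). It ran in WT from 3.13 to 4.56 CPM at 0 h (median 3.92) and from 2.67 to 3.84 at 1 h (median 3.16), and in mutants from 3.25 to 4.18 CPM at 0 h (median 3.76) and from 2.4 to 3.31 at 1 h (median 2.87). In mutants 5 of 6 mice at 1 h were below every naive mutant, and in WT 2 of 6 were below every naive WT mouse. The tested neighbours Rpl8 and 1110038F14Rik differed by 0.00 (adjusted p = 0.98) and −0.04 (adjusted p = 0.747). The call was lost without any 1 of 24 libraries (adjusted p from 0.0505 to 0.101), and no start site sequence was found for this gene.

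At 3 h, averaged over genotypes, 2 of 152 genes passed, Zfp938 falling and Zfp651 rising, where 2.39% of all genes and 3 of 192 Zfp genes with other numbers did. At an unadjusted p under 0.05 there were 12 (7.89%, against 15.8% of all genes). Of the 152 genes 55 were higher and 97 lower than at 0 h, with a median log2 difference of −0.02, and 36.2% were thus higher against 47.4% of all genes, whose median was −0.01. Of the Zfp genes with other numbers 81 of 192 were higher, also with a median of −0.01. DESeq2 called 2 of the 152 at 3 h, where 4.44% of all genes passed, and 2 passed without the 2 libraries of discordant sex, where 3.42% of all did. Zfp938 (chr10:82224850-82241280, minus strand) ran in WT from 18.9 to 21.7 CPM at 0 h (median 20.9), from 19.1 to 21.6 at 1 h (median 20.1) and from 15.8 to 19.8 at 3 h (median 18.4). In mutants it ran from 18.9 to 20.3 CPM at 0 h (median 19.8), from 17.5 to 20.9 at 1 h (median 19.1) and from 15.4 to 20.2 at 3 h (median 17.4). Of the 12 mice at 3 h, 8 were below every naive mouse. Zfp938 fell by 0.17 on the log2 scale at 3 h (SE 0.04, adjusted p = 0.0239), and at 1 h it differed by −0.03 (SE 0.04, adjusted p = 0.812). The 3 h difference was −0.15 without the 2 libraries of discordant sex (SE 0.04, adjusted p = 0.0326). Its tested neighbours AU041133 and Gm4924 differed by −0.04 (adjusted p = 0.865) and 0.09 (adjusted p = 0.777) at 3 h. The 3 h call was lost without WT 0 h M3 (adjusted p = 0.0513) or WT 3 h M2 (adjusted p = 0.0508).

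**Figure D4:**
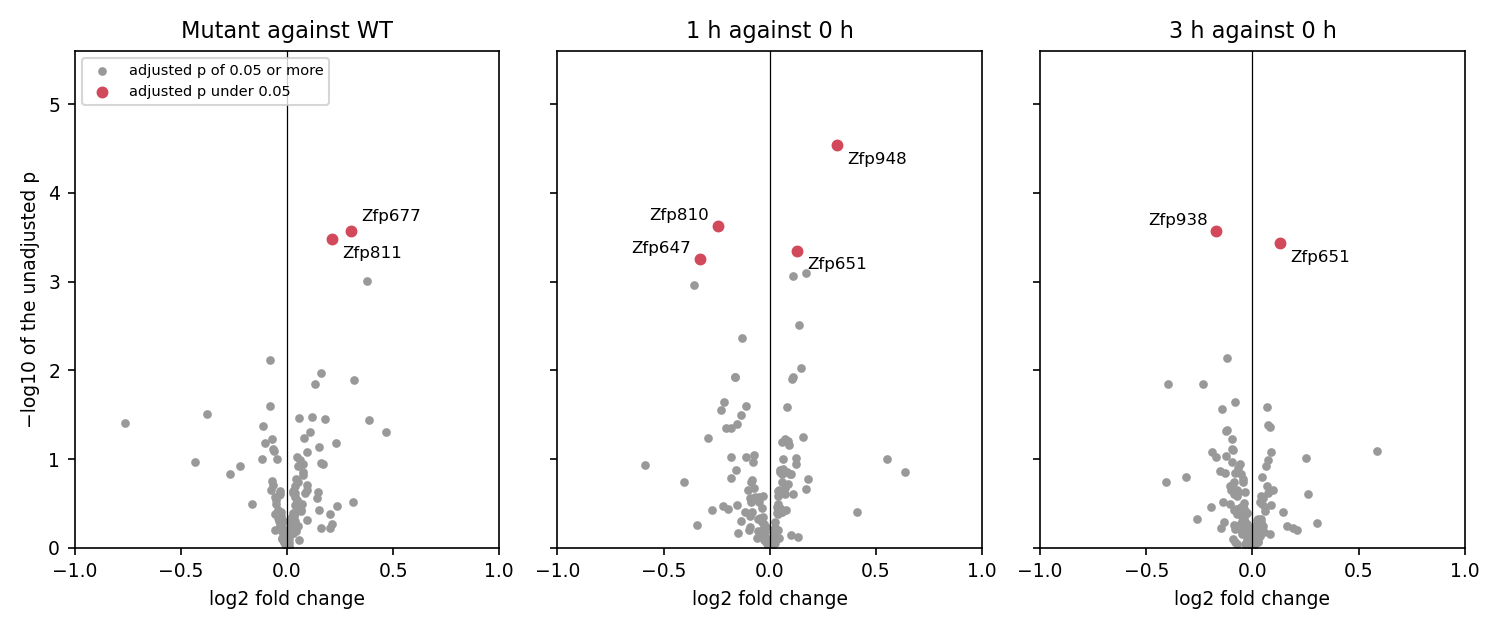
Unadjusted p (as −log10) against log2 fold change for the 152 tested genes in the fit of 36 libraries, for mutant against WT over all times and for 1 h and 3 h against 0 h over both genotypes. Red points have an adjusted p under 0.05 over all genes, 2 in the first panel, 4 in the second and 2 in the third, and most points lie within 0.1 of no change.

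Within one genotype the edgeR test called none of these genes at either time. In WT 0 of 149 passed at 1 h and 0 of 150 at 3 h, where 0% of all genes passed at both, with 9 (6.04%, against 5.36%) and 7 (4.67%, against 8.23%) at an unadjusted p under 0.05. In mutants 0 of 149 passed at 1 h (0.312% of all genes) and 0 of 148 at 3 h (0% of all), with 17 (11.4%, against 11.1%) and 8 (5.41%, against 8.57%). DESeq2 called 0 at 1 h and 0 at 3 h in WT (0.052% and 0.459% of all genes), and 7 at 1 h and 0 at 3 h in mutants (2.14% and 0.822%). The 7 were Zfp647, Zfp651, Zfp784, Zfp810, Zfp867, Zfp941 and Zfp948. In mutants Zfp941 had the smallest p at 1 h (log2 difference −0.46, SE 0.09, adjusted p = 0.0636) and again at 3 h (−0.31, SE 0.10, adjusted p = 0.385), followed at 1 h by Zfp948, as given above, and at 3 h by Zfp651 (0.13, SE 0.04, adjusted p = 0.439). Zfp941 ran from 15.8 to 24.1 CPM in naive mutants (median 21.6) and from 12.2 to 17.2 at 1 h (median 15.3), with 4 of 6 mice at 1 h below every naive mutant. It passed at 1 h when mutant 0 h M1 (adjusted p = 0.013) or mutant 1 h M1 (adjusted p = 0.0334) was left out. In WT the smallest p belonged to Zfp948 and Zfp839 at 1 h (0.24 and −0.19, both with adjusted p = 0.922) and to Zfp639 and Zfp938 at 3 h (−0.15, adjusted p = 0.498, and −0.17, adjusted p = 0.532). Without the library of discordant sex in the comparison, 0 of these genes passed in WT at 1 h (0.0172% of all genes) and 0 in mutants at 3 h (0.00576%). Zfp839 then differed by −0.20 in WT at 1 h (adjusted p = 0.645), and in mutants at 3 h Zfp941 differed by −0.26 (adjusted p = 0.311) and Zfp651 by 0.10 (adjusted p = 0.36).

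The third question was whether the response to conditioning differs between genotypes. The interaction terms called 0 of 152 genes at 1 h and at 3 h, as 0% of all genes, and DESeq2 called 0 in both. At an unadjusted p under 0.05 there were 5 (3.29%, against 3.73% of all) and 3 (1.97%, against 1.76%). The smallest p at 1 h were those of Zfp799 (−0.20, SE 0.07) and Zfp867 (−0.27, SE 0.12), and at 3 h those of Zfp830, known to guard genome integrity in the early embryo (0.19, SE 0.08), and Zfp605 (0.17, SE 0.07), all with an adjusted p of 1.0. Without the 2 libraries of discordant sex 0 genes passed, and these 4 terms were −0.18, −0.20, 0.18 and 0.18. Zfp799 shows the size of such a difference. Its group means were 30.1 ± 1.33, 32.3 ± 2.11 and 32.5 ± 1.49 CPM in WT and 33.7 ± 1.4, 31.5 ± 1.89 and 33.0 ± 2.34 CPM in mutants at 0, 1 and 3 h (SD, n = 6).

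The direction within runs of neighbours is given as counts, without a test. In the run of 14 genes on chromosome 17, 7 were higher and 7 lower in mutants, with a median log2 difference of 0.01, and 6 were higher and 8 lower at 1 h. At 3 h 2 were higher and 12 lower (median −0.08). In the run of 6 that holds Zfp811, 4 were higher in mutants and 2 lower (median 0.04), and at 3 h 4 were higher and 2 lower (median 0.01). In the run on chromosome 4 with Zfp991, Zfp984 and Zfp985, 5 of 6 were higher in mutants (median 0.11), 5 of 6 were lower at 1 h (median −0.24) and 6 of 6 were lower at 3 h (median −0.08). None of its genes passed. Of all 17 runs, 13 had a median above 0 and 4 below 0 for mutants against WT, 4 above and 13 below at 1 h, and 5 above and 12 below at 3 h. Among these, the run of 6 on chromosome 4 from 145670697 had only 1 tested gene (Zfp992, −0.37 between genotypes). The run of 3 on chromosome 2 also had only 1 (Zfp966, 0.47), so these medians are single genes. Runs were set by distance alone, and whether their genes share reads was not measured.

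Of 18 genes listed for the KRAB silencing pathway (TRIM28, its partners and related factors), 18 were counted and tested. Trim28 itself stood at 152 CPM, with log2 differences of 0.03 between genotypes (SE 0.02, adjusted p = 0.646), 0.05 at 1 h (SE 0.03, adjusted p = 0.527) and 0.07 at 3 h (SE 0.03, adjusted p = 0.249). Setdb1, at 46.6 CPM, differed by 0.01 (SE 0.03, adjusted p = 0.912), 0.08 (SE 0.04, adjusted p = 0.369) and 0.08 (SE 0.04, adjusted p = 0.328). One gene passed in these tests, Zkscan3, itself a zinc finger gene known as a repressor of autophagy genes, which rose by 0.17 at 1 h (SE 0.04, adjusted p = 0.0132). Over the list, 0 of 18 passed between genotypes, 1 at 1 h, 0 at 3 h and 0 in both interactions, where 1.18%, 1.14%, 2.39% and 0% of all genes did. At an unadjusted p under 0.05 there were 0 between genotypes, 2 at 1 h and 2 at 3 h, against 15.1%, 12.5% and 15.8% of all genes. In the interactions there were 1 at 1 h and 0 at 3 h, against 3.73% and 1.76%.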

How the data were processed

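The authors aligned the reads of polyadenylated RNA from 36 libraries to mm10 with STAR (2.7.8a) and counted them per gene with featureCounts (2.0.1), per the labels. The deposited values are raw counts for 27179 genes per library, without normalization. The annotation, strand setting and treatment of multi-mapping reads are not given in the sources used here. Libraries were grouped by their labels. From the first sequencing experiment of the series, 8 samples were not analysed here. Genes without a name in the RefSeq table numbered 1904 and held 1.28% of the counts. The set of genes and the lists were chosen with earlier results of these data known, although membership follows from symbol and gene type alone.

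Counts were tested with the quasi-likelihood F-test of edgeR 4.0.16 (limma 3.58.1, R 4.3.3), with TMM factors, filterByExpr at a minimum count of 10, labelled sex as a covariate and Benjamini-Hochberg adjustment over all genes tested. Genes with an adjusted p under 0.05 were called. Pairwise comparisons used their 12 libraries. Comparisons averaged over times or genotypes, and interactions, used 36. Exon lengths and overlaps are from GENCODE M21 and start site sequences from RefSeq (GRCm38.p6). The limit given for genes without counts covers counting error only. Standard errors are those of the edgeR fit and include the spread between mice. Library totals were 40274435 to 107000233 counts.

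The genes named were Zfp810, every called gene, those with the smallest p in each test (3 for genotype comparisons, 2 for others), the 3 highest and 3 lowest in level, and the 3 with the largest spread, 28 in all, with neighbours of called genes. Zfp983, Zfp704, Zfp775, Zfp784, Zfp790, Zfp616 and Zfp735 were named after their values were seen. Alternatives were DESeq2 1.42.0, RLE factors, no filter, at least 10 counts in every library, no sex covariate, replicate numbers as a block, 36 libraries in one fit for genotype comparisons, leaving out the 2 libraries of discordant sex, and leaving out each library. The choroid plexus covariate was chosen after seeing the data. Summaries were made in Python 3.11.15 (pandas 2.3.3 on NumPy 2.4.6) and plots with Matplotlib 3.10.9.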

Additional observations from a re-analysis of the deposited data

Results flagged for a closer look

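Of 168 groups of 6 libraries (28 named genes in 6 groups), 14 held a library that stood apart from the other 5 by Dixon's test at the 95% level, which flags about 1 in 20 groups by chance. That rate is no yardstick here, since some of the 28 genes were chosen for a wide spread or a low level. No explanation was tested for any of them. Among abundant genes, Zfp664 was low in mutant 0 h F1, at 111 CPM, with the others from 123 to 124 CPM. Zfp871 was high in mutant 1 h M1, at 206 CPM, with the others from 174 to 184 CPM. Zfp799 was low in WT 3 h M1, at 29.5 CPM, with the others from 32.7 to 33.5 CPM.

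Of the genes with a call or near one, Zfp677 was low in WT 0 h F3, at 1.89 CPM, with the others from 2.45 to 2.68 CPM. Without that library Zfp677 differed between genotypes by 0.28 on the log2 scale (adjusted p = 0.053). Zfp948 was low in WT 3 h M3, at 7.74 CPM, with the others from 10.3 to 11.2 CPM. Zfp941 was high in WT 1 h M1, at 21.2 CPM, with the others from 11.4 to 13.98 CPM, and this is 1 of the 2 libraries of discordant sex. It was low in mutant 0 h M1, at 15.8 CPM, with the others from 21.2 to 24.1 CPM. Zfp970 was high in mutant 0 h F1, at 55.5 CPM, with the others from 17.97 to 30.4 CPM, and low in mutant 1 h M3, at 31.2 CPM, with the others from 40.2 to 44.6 CPM.

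Among low or variable genes, Zfp951 was high in mutant 0 h M3, at 3.83 CPM, with the others from 0.486 to 1.13 CPM. Zfp991 was high in mutant 3 h F1, at 3.08 CPM, with the others from 0.428 to 1.2 CPM. Zfp819 was high in WT 0 h M2, at 0.246 CPM, with the others up to 0.0863 CPM, and in mutant 3 h F2, the other library of discordant sex, at 0.514 CPM, with the others up to 0.116 CPM. Zfp985 was high in mutant 0 h M3, at 0.363 CPM, with the others up to 0.126 CPM.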

How the results depend on the processing

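Of 12 counts of called Zfp genes, those for genotype at 3 h, genotype over all times, 1 h over both genotypes and 1 h in mutants moved by more than 1.5 times in some setting. DESeq2 called 2 at 3 h between genotypes, 7 at 1 h over both genotypes and 7 at 1 h in mutants (0.27%, 2.23% and 2.14% of all genes). Without a filter 1 gene passed at 1 h in mutants (Zfp941, with 0.262% of all genes) and 2 over both genotypes (Zfp810 and Zfp948, with 0.743%). Leaving out the 2 libraries of discordant sex gave 5 calls between genotypes and 8 at 1 h over both genotypes (2.58% and 2.23% of all genes). The choroid plexus covariate gave 1 and 7 (0.797% and 1.65%). Leaving out 1 library at a time gave 0 to 3 calls between genotypes over all times, 1 to 6 at 1 h and 0 to 2 at 3 h over both genotypes, and 0 to 3 at 1 h in mutants, the last without mutant 0 h M1, and 0 for each of the other comparisons. The shares of all genes in the fits that left out 1 library are not given, so those counts cannot be set against the background. The causes of these shifts were not tested.

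Correlations between mice of the same replicate number ran from −0.241 to 0.314. Values for mice of different numbers are not given, so this range cannot show whether the number pairs the mice. With the replicate block the counts were 2 between genotypes, 4 at 1 h and 2 at 3 h, and 0 for the other comparisons, as without it. The share of all genes called with the block is not given, so these counts cannot be set against the background. For the 30 fold changes of named genes, 921 alternative values were computed. None changed direction, 96 lost a call and 13 gained one. Near the threshold, Zfp651 at 1 h had an adjusted p of 0.0507 with RLE factors and 0.0584 without a filter, and Zfp647 of 0.0638 without a filter. Genes with few counts, such as Zfp819, Zfp973 and Zfp985, cannot show changes of the size seen in the called genes at this depth.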
